A study of Homo sapiens with 8 samples.

Results

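Semaphorins, plexins, neuropilins, ephrins and Eph receptors, the ligands and receptors of axon guidance, were described in 2 human cell lines of triple-negative breast cancer with and without depletion of GPX1, a peroxide-reducing enzyme. The genes were chosen by symbol alone (SEMA3 to SEMA7, PLXNA to PLXND, NRP1, NRP2, EPHA, EPHB, EFNA and EFNB), and 53 of the 23686 listed genes met the rule. They comprise 20 semaphorins, 9 plexins, 2 neuropilins, 14 Eph receptors and 8 ephrins. RNA was sequenced from 4 groups of 2 libraries each: HS578T cells labelled siGpx1, HS578T control cells, MDA-MB-231 cells labelled siGpx1 and MDA-MB-231 control cells. The titles of the depleted libraries name an siRNA against GPX1 while their genotype tag reads Gpx1-/-, and the sources used here do not give the siRNA sequences, the time after transfection or the kind of control. Both are established lines, labelled as epithelial cells of the mammary gland, so each stands for 1 genetic background. The title of the series links GPX1 to metastasis of triple-negative breast cancer, and its design sets depleted against control cells.

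Semaphorins are secreted or membrane-bound ligands that signal through plexins, whose cytoplasmic part acts on small GTPases of the Ras and Rap families. The secreted class 3 members usually need a neuropilin as co-receptor, and neuropilins also bind vascular endothelial growth factors. Eph receptors are receptor tyrosine kinases that meet their ephrins on neighbouring cells: ephrin-A proteins are held in the membrane by a lipid anchor, ephrin-B proteins span it, and signals can run into both cells. In breast epithelium and breast cancer these families are known for effects on cell adhesion, repulsion, migration and vessel growth.

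The 8 libraries held 12905808 to 14216365 estimated counts. GPX1 had 42 and 42 counts in the HS578T siGpx1 libraries, against 1117 and 1074 in the HS578T controls, and 108 and 95 in the MDA-MB-231 siGpx1 libraries, against 2944 and 3223 in the MDA-MB-231 controls. No library went against its label. The labelled cell type held in part: EPCAM, an epithelial adhesion molecule, averaged 0.115 and 0.11 TPM (a transcript level corrected for gene length and library total) in siGpx1 and control HS578T cells, and 39.3 and 32.2 TPM in siGpx1 and control MDA-MB-231 cells. Of the 8 breast epithelial markers looked at, EPCAM included, 4 reached 1 TPM in HS578T siGpx1 and 4 in HS578T control cells. In MDA-MB-231 5 did in siGpx1 and 4 in control cells. All 6 mesenchymal markers looked at reached 1 TPM in HS578T and 4 of 6 did in MDA-MB-231. The pair of HS578T siGpx1 libraries differed most from each other, at a chi-square of 4.05 averaged over genes, where the other groups gave 1.36 to 1.97. Nothing in the labels says that replicates came from separate cultures, so p-values cover the spread between the libraries at hand and that spread may be technical.

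Most of the 53 genes were present in at least 1 group. A level of at least 1 TPM in both libraries of a group was reached by 40 genes in HS578T siGpx1, 41 in HS578T control, 32 in MDA-MB-231 siGpx1 and 33 in MDA-MB-231 control cells. Of all 53, 31 reached it in all 4 groups and 11 in none. Another 9 reached it in HS578T and in no MDA-MB-231 group (SEMA3D, SEMA5A, SEMA6D, PLXNA4, EPHA3, EPHA5, EPHB1, EPHB3 and EFNB3), while 0 did the reverse. A filter on low counts left 14249 genes to test, 45 of the 53 among them. The 8 untested genes (SEMA3E, SEMA3G, SEMA4A, EPHA1, EPHA6, EPHA7, EPHA8 and EFNA2) stayed under 1 CPM (counts scaled by library size) in each of the 8 libraries, and EPHA8 had 0 counts in all of them.

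**Figure D1:**
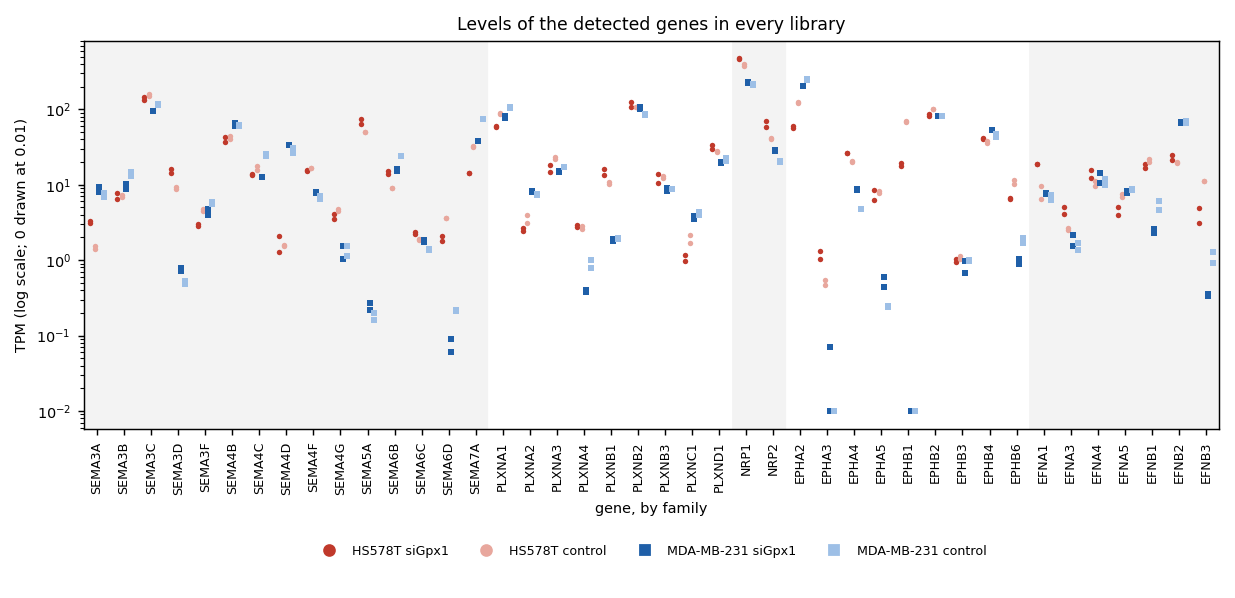
TPM (log axis) of the 42 genes with at least 1 TPM in both libraries of a group, by family, with 1 point per library and values of 0 drawn at 0.01. NRP1, SEMA3C, PLXNB2, PLXNA1, EPHA2 and EPHB2 stand near the top in both lines, and SEMA5A and EPHB1 are high in HS578T and near or at 0 in MDA-MB-231.

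Both lines shared the same 6 most abundant members by mean TPM over their libraries. NRP1, the co-receptor of SEMA3A and of vascular endothelial growth factor, averaged 469 ± 6.45 TPM in HS578T siGpx1 and 391 ± 14.7 TPM in HS578T control cells (SD, n = 2 each). In MDA-MB-231 it averaged 224 ± 4.02 TPM in siGpx1 and 211 ± 3.44 TPM in control cells. EPHA2, an Eph receptor abundant in many carcinomas, had 58.2 ± 1.71 TPM in HS578T siGpx1 and 123 ± 1.74 TPM in HS578T control cells. It had 203 ± 2.67 TPM in MDA-MB-231 siGpx1 and 250 ± 4.84 TPM in MDA-MB-231 control cells, where it was the first of all 53. The secreted ligand SEMA3C, the receptors PLXNB2 and PLXNA1, and EPHB2 filled the other places, between 59.9 and 155 TPM in the 4 group means. In HS578T siGpx1 cells the libraries of SEMA5A, NRP2, PLXNA1 and EPHA2, which followed each other in this order, overlapped from each gene to the next, so that their order was not resolved. EPHB2 and PLXNA1 overlapped in the same way in MDA-MB-231 siGpx1 cells.

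Summed over families, neuropilins were the most abundant in HS578T and Eph receptors in MDA-MB-231 siGpx1 and control cells, and ephrins the least abundant in both lines. Ephrins summed to 86.9 ± 7.62 and 80.5 ± 4.45 TPM in siGpx1 and control HS578T cells, and to 99.6 ± 2.04 and 102 ± 1.80 TPM in siGpx1 and control MDA-MB-231 cells (SD, n = 2 each). Neuropilins summed to 533 ± 2.10 TPM in HS578T siGpx1 and 432 ± 15.2 TPM in HS578T control cells. EphA receptors summed to 93.4 ± 0.248 TPM in HS578T siGpx1 and 152 ± 1.91 TPM in HS578T control cells, and to 213 ± 2.41 and 255 ± 4.81 TPM in siGpx1 and control MDA-MB-231 cells. EphB receptors summed to 152 ± 6.22 and 219 ± 5.54 TPM in siGpx1 and control HS578T cells. In MDA-MB-231 the EphB sums lay close together, at 137 ± 0.0990 TPM in siGpx1 and 130 ± 3.0 TPM in control cells. The HS578T difference lay mostly in EPHB1, at 18.5 ± 0.969 TPM in siGpx1 and 69.5 ± 1.54 TPM in control cells, while EPHB2 had 83.9 ± 4.51 and 101 ± 1.41 TPM. In bulk RNA, fewer cells expressing a gene and less RNA per cell cannot be told apart.

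**Figure D2:**
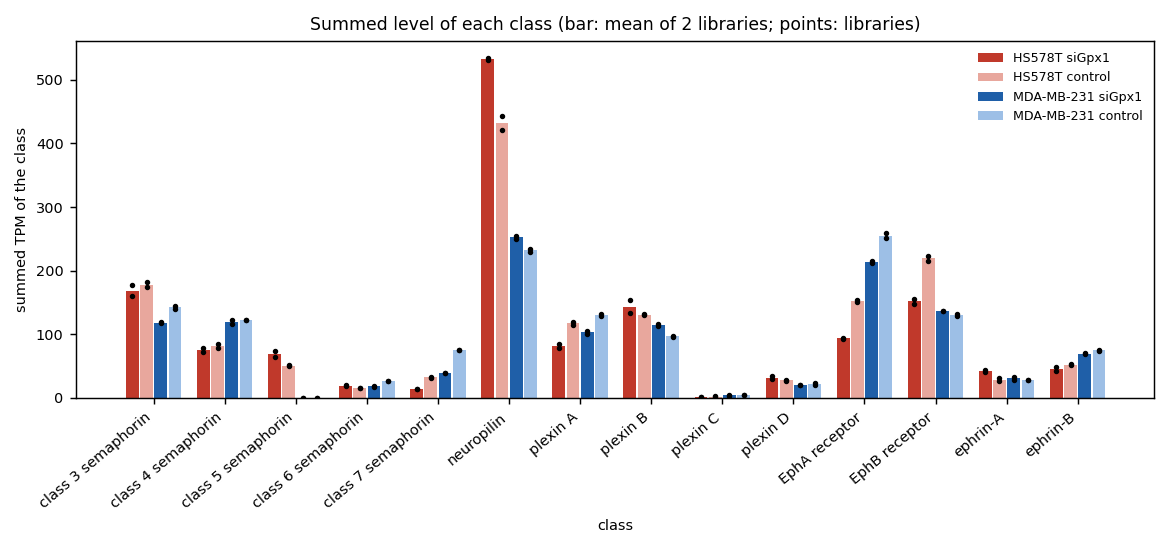
Summed TPM of each class of ligand or receptor, with bars for the mean of 2 libraries and points for the libraries. EphA receptors are lower in siGpx1 than in control cells of both lines, and the neuropilin bar is highest in HS578T siGpx1 cells.

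A sequence feature shared by some members was read from the 3′ untranslated regions (3′ UTRs) of their transcripts, because earlier results of these data had shown one that went with lower expression after depletion. Over 13052 tested genes outside the 5 families, each of 15963 sequences of 7 bases was scored by the change of the genes holding it in their 3′ UTR. GGGCATC and GGCATCA had the lowest scores in both lines. Genes with GGGCATC differed from those without it by -0.39 (log2) in HS578T and by -0.35 in MDA-MB-231, and genes with GGCATCA by -0.31 and -0.33. These differences are adjusted for the length of the 3′ UTR by a linear model and are not plain differences of means. The pair overlaps in the 8-base sequence GGGCATCA, which also occurs in the GPX1 transcript that could be matched by accession, outside its 3′ UTR. Since the same libraries had shown this pattern before, it is a description and adds no independent support.

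Of the 45 tested members, 11 (24.4%) held GGGCATC or GGCATCA in a 3′ UTR, against 14.3% of the other genes scanned. The longest 3′ UTR had a median of 1493 bases over the 45 tested members, against 1241 bases over the other genes scanned. Among holders the median was 3188 bases for the 11 members, against 2710 bases for the other genes. EFNA5, EFNB3 and PLXNA4 held the whole 8-base sequence, and EFNB1, NRP2, PLXNA2, SEMA4F, SEMA5A, SEMA5B, SEMA6A and SEMA7A held a 7-base one. The untested EPHA7, EPHA8 and SEMA3G held one too. The sites below are a selection from the holders that recur in the comparisons that follow. PLXNA2, SEMA5A and SEMA5B also recur and are not shown, nor are SEMA4F and SEMA6A, which passed in neither depletion comparison. All members shown but NRP2 passed as lower in a line, while SEMA5A rose in HS578T, so the selection does not stand for all holders. They are given 5′ to 3′ on the transcript strand with the match in capitals, from GENCODE release 29 on GRCh38, while the counts were made on hg19. The 8-base site of EFNB3 lies at chr17:7710079-7710108 on the plus strand, that of EFNA5 at chr5:107380758-107380787 on the minus strand, and that of PLXNA4 at chr7:132128368-132128397 on the minus strand. The SEMA7A site lies at chr15:74410375-74410404 on the minus strand, that of EFNB1 at chrX:68841404-68841433 on the plus strand, and the first of the NRP2 sites at chr2:205778775-205778804 on the plus strand. The stretch of GPX1 lies at chr3:49358017-49358046 on the minus strand.
EFNB3: ctcctgggtggGGGCATCAaagcatttctc
EFNA5: atgatcgcgcaGGGCATCAtgtcaccatgt
PLXNA4: accttggaacaGGGCATCAtgtgacatcgc
SEMA7A: ctgtgaagctgGGGCATCgatgacccaaga
EFNB1: gtgggattcttGGGCATCtcctgcctccct
NRP2: atgccccaagtGGCATCAtctttatgtaca
GPX1: gcaaccagtttGGGCATCAggtgcgccggg

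In HS578T, depletion of GPX1 went with changes in both directions. Of the tested ephrin-A ligands 3 of 4 rose while their receptor EPHA2 fell. Of these rises, that of EFNA4 was near the threshold (adjusted p = 0.0479 by edgeR). Its call was lost under 7 of 9 settings other than leaving out 1 library, and EFNA3 had only 24 to 44 counts a library. Both neuropilins rose while 3 of 4 plexins of class A fell, and the B-type receptor EPHB1 and the semaphorin SEMA7A fell over 2-fold. Of the 45 tested members, 16 were higher in siGpx1 cells, against 28.6% of all tested genes, and 15 were lower, against 22.1% (edgeR's quasi-likelihood test, adjusted p under 0.05). Together 68.9% of the tested members changed, against 50.7% of all tested genes. The median log2 change was -0.0182 for the members and 0.0409 for all tested genes. In 36 of 45 members the siGpx1 libraries did not overlap the control libraries, which was the case for 72.2% of all tested genes.

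Among the ligands of Eph receptors, EFNA1, the main partner of EPHA2, had 12.2 and 12.5 CPM in HS578T siGpx1 libraries, against 6.09 and 4.16 CPM in control libraries. Both siGpx1 libraries lay above both controls, and the controls differed more from each other than the siGpx1 libraries did. The rise was 2.40-fold (log2 change 1.26 ± 0.17, SE; adjusted p = 1.14e-05 by edgeR). EFNA3 had 3.74 and 3.09 CPM in siGpx1 libraries, against 1.81 and 1.96 CPM in controls, from 24 to 44 counts a library. Its groups did not overlap either, and it rose by 0.86 ± 0.27 on the log2 scale (adjusted p = 0.0137 by edgeR). EFNA4 rose by 0.50 ± 0.20 with an adjusted p of 0.0479 by edgeR, and lost its call under 14 of the alternatives tried. EFNA5, which holds the 8-base sequence shown above, fell by 0.64 on the log2 scale, so that 3 of 4 tested ephrin-A genes rose and 1 fell. The transmembrane ligand EFNB3, also a holder of the 8-base sequence, had 6.80 and 4.31 CPM in siGpx1 libraries, against 15.0 and 15.1 CPM in controls. Here the siGpx1 libraries were apart from each other but both far below the controls, and EFNB3 fell 2.71-fold (log2 change -1.44 ± 0.18; adjusted p = 6.74e-06 by edgeR). EFNB2, a vessel ligand that binds EPHB4, rose by 0.28 ± 0.07, and EFNB1 had a log2 change of -0.19 ± 0.10 that did not pass.

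Among Eph receptors, EPHB1 had 38.3 and 36.0 CPM in HS578T siGpx1 libraries, against 136 and 133 CPM in controls. Among members that averaged at least 1 CPM over the 4 HS578T libraries it fell most, 3.62-fold (log2 change -1.86 ± 0.06; adjusted p = 2.25e-11 by edgeR), and its libraries agreed closely within each group. EPHA2 had 96.2 and 101 CPM in siGpx1 libraries, against 199 and 204 CPM in controls, with no overlap. It fell 2.04-fold (log2 change -1.03 ± 0.04; adjusted p = 2.37e-11 by edgeR). EPHA3, which binds EFNA5, was scarce, with 3.32 and 2.60 CPM in siGpx1 libraries, against 1.13 and 1.33 CPM in controls, or 39, 32, 15 and 17 counts. Both siGpx1 libraries were above the controls, and it rose by 1.26 ± 0.32 on the log2 scale (adjusted p = 0.00446 by edgeR). EPHA4, a receptor for ligands of both ephrin types, rose by 0.42 ± 0.06. EPHB6, whose kinase domain is inactive, fell by 0.67 on the log2 scale, EPHB2 fell by 0.21 and EPHB4 rose by 0.21. EPHA5 (-0.07 ± 0.12) and EPHB3 (-0.07 ± 0.29) did not pass. Annotated exons of EPHB1, EPHB2, EPHB4, PLXNA3 and SEMA4G overlap genes on the other strand and those of PLXNB3 a gene on the same strand, so their counts are less certain, and whether reads were counted by strand is not stated in the sources used here.

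Among semaphorins, SEMA3A, a secreted repellent that binds NRP1, had 7.48 and 8.14 CPM in HS578T siGpx1 libraries, against 3.31 and 3.61 CPM in controls. The groups were well apart, and it rose 2.26-fold (log2 change 1.18 ± 0.16; adjusted p = 1.98e-05 by edgeR). SEMA3D, another secreted ligand, rose by 0.79 ± 0.08, while SEMA3F, which acts through NRP2, fell by 0.61 on the log2 scale. SEMA7A, a lipid-anchored semaphorin that binds PLXNC1 and integrins, had 20.5 and 21.0 CPM in siGpx1 libraries, against 44.0 and 45.0 CPM in controls. The libraries of a group were nearly equal, and SEMA7A, which holds a 7-base match, fell 2.14-fold (log2 change -1.10 ± 0.07; adjusted p = 2.79e-09 by edgeR). The membrane-bound SEMA5A rose by 0.52 ± 0.05, and SEMA6B rose by 0.72 ± 0.09 while SEMA6D, a ligand of PLXNA1, fell by 0.73 on the log2 scale. SEMA5B, with 2 and 0 counts in siGpx1 libraries and 19 and 10 in controls, passed as lower (adjusted p = 0.00207 by edgeR), at a level too low for its fold to be read closely. SEMA4C, a ligand of PLXNB2, fell by 0.25 on the log2 scale.

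Among semaphorin receptors, NRP2 had 180 and 149 CPM in HS578T siGpx1 libraries, against 101 and 99.5 CPM in controls. It rose by 0.72 ± 0.07 on the log2 scale (adjusted p = 2.36e-07 by edgeR), with the siGpx1 libraries apart from each other but both higher than the controls. NRP1 rose by 0.31 ± 0.04. Plexins of class A carry the signal of neuropilin-bound semaphorins, and 3 of 4 fell: PLXNA1 by 0.51, PLXNA2 by 0.43 and PLXNA3 by 0.38 on the log2 scale. PLXNA4, at -0.07 ± 0.13, did not pass. PLXNB1, the receptor of SEMA4D, rose by 0.56 ± 0.08, PLXNB2 by 0.17 ± 0.05 and PLXND1, the receptor of SEMA3E, by 0.25 ± 0.07, while PLXNC1 fell by 0.78 on the log2 scale. The remaining tested genes, SEMA3B, SEMA3C, SEMA4B, SEMA4D, SEMA4F, SEMA4G, SEMA6A, SEMA6C, PLXNB3 and EPHA10, did not pass, with log2 changes between -0.32 and 0.37 and 0 counts for EPHA10. Without HS578T siGpx1 replicate 1 the rises were 10 instead of 16, since EFNA3, EFNA4, EFNB2, EPHA3, PLXNB2 and PLXND1 no longer passed, nor did SEMA4C. Calls were also lost without HS578T control replicate 1 (EFNA3, EFNA4, EPHA3, PLXNA2 and SEMA4C), HS578T control replicate 2 (EFNA3, EFNA4, EPHB4, PLXNB2, PLXNC1 and PLXND1), HS578T siGpx1 replicate 2 (PLXNC1) and any one MDA-MB-231 library (EFNA4 and PLXNB2). PLXNB2 and PLXND1 did not pass by limma on log2(TPM + 1) or log2(TPM + 0.1), at adjusted p of 0.0914 to 0.156, nor did PLXNB2 when the fit held only the 4 HS578T libraries (adjusted p = 0.114 by edgeR). By DESeq2, EFNA3, EFNA4, EPHA3, EPHB4, PLXNC1, SEMA3F, SEMA4C and SEMA6D did not pass, at adjusted p of 0.0550 to 0.187, and SEMA5B was given no adjusted p.

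**Figure D3:**
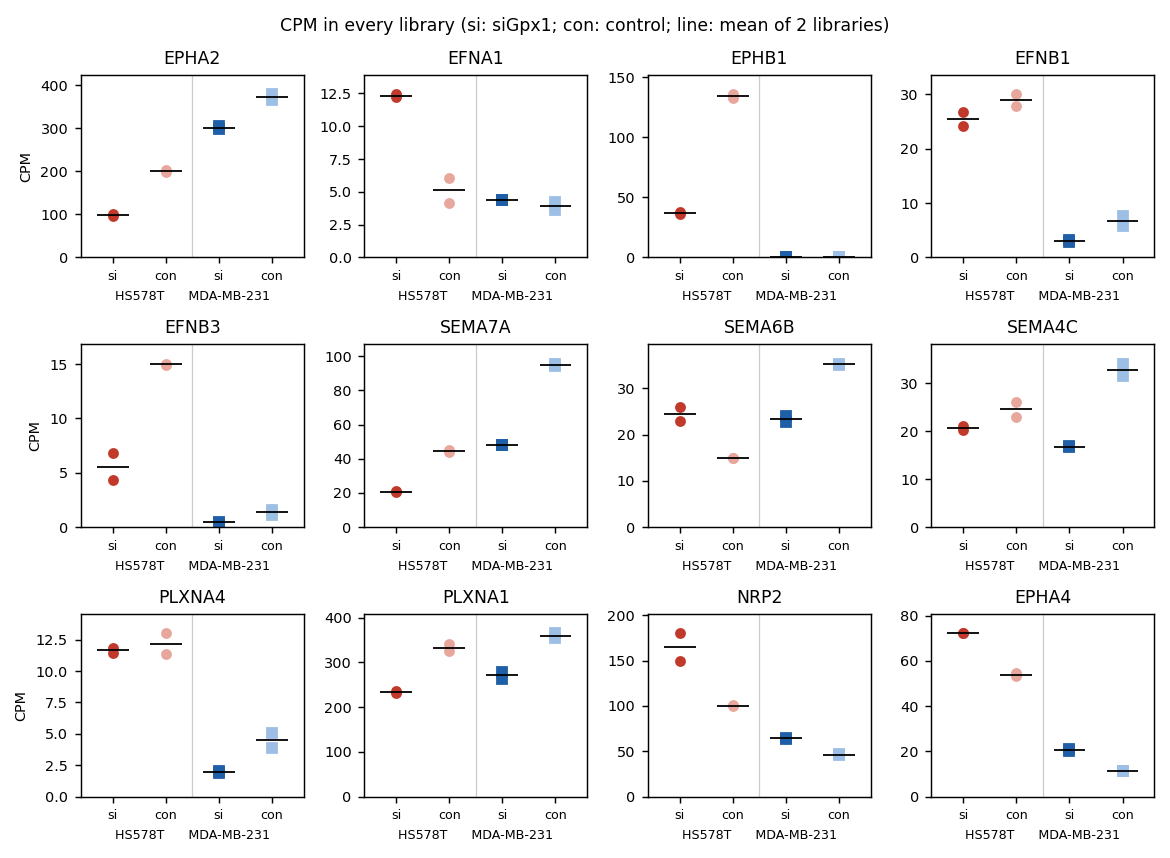
CPM in every library for 12 of the genes, with HS578T on the left and MDA-MB-231 on the right of each panel, siGpx1 before control, and a line at the mean of 2 libraries. SEMA7A and PLXNA1 are lower in siGpx1 than in control cells of both lines, NRP2 and EPHA4 are higher in both, and SEMA6B is higher in HS578T siGpx1 cells and lower in MDA-MB-231 siGpx1 cells.

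In MDA-MB-231, fewer members changed than in HS578T, and more fell than rose. SEMA7A, SEMA4C, PLXNA4 and the ephrin-B ligands EFNB1 and EFNB3 fell to between 0.315 and 0.512 of their control level, while the Eph receptor EPHA4, NRP2 and PLXNB2 rose. Of the 45 tested members, 6 were higher in siGpx1 cells, against 20.7% of all tested genes, and 11 were lower, against 21.9% (edgeR's quasi-likelihood test, adjusted p under 0.05). Over the 9 settings other than leaving out 1 library, 4 to 9 were higher and 11 to 13 lower, with 4 and 12 by limma on log2(TPM + 1). Together 37.8% changed, against 42.6% of all tested genes, a share near that of all genes. The median log2 change was -0.0183 for the members and 0 for all tested genes. In 32 members the groups did not overlap, which was the case for 71.4% of all tested genes.

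Of the ephrins, EFNB1, a transmembrane ligand of EphB receptors, had 3.17 and 2.86 CPM in MDA-MB-231 siGpx1 libraries, against 7.58 and 5.77 CPM in controls. The groups did not overlap, and EFNB1, which holds a 7-base match, fell 2.21-fold (log2 change -1.14 ± 0.18; adjusted p = 7.67e-05 by edgeR). EFNB3 had 6 and 6 counts in siGpx1 libraries and 17 and 24 in controls, and fell by 1.66 on the log2 scale with an SE of 0.44 (adjusted p = 0.00583 by edgeR). Its call was lost without MDA-MB-231 control replicate 2 and without MDA-MB-231 siGpx1 replicate 1. EFNB2, at 108 and 110 CPM in siGpx1 libraries and 109 and 115 CPM in controls, did not pass. Of the 4 tested ephrin-A genes, 0 passed, with log2 changes between -0.11 and 0.26.

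Of the Eph receptors, EPHA4 had 20.2 and 20.9 CPM in MDA-MB-231 siGpx1 libraries, against 11.3 and 11.4 CPM in controls. The groups were far apart relative to their spread, and EPHA4 rose 1.81-fold (log2 change 0.86 ± 0.08; adjusted p = 4.6e-07 by edgeR). EPHA5, another receptor of ephrin-A ligands, had 26 and 18 counts in siGpx1 libraries and 11 and 11 in controls, or 1.75 and 1.29 CPM against 0.725 and 0.713 CPM. It rose by 1.08 ± 0.40 on the log2 scale (adjusted p = 0.0399 by edgeR), and the call was lost without either MDA-MB-231 control library or without MDA-MB-231 siGpx1 replicate 1. It was also lost by limma-voom (adjusted p = 0.11), with a replicate block (adjusted p = 0.0514 by edgeR) and by limma on log2(TPM + 1), where the change was 0.29 (adjusted p = 0.144). EPHB4, the receptor of EFNB2, rose by 0.25 ± 0.06. EPHA2 fell by 0.30 on the log2 scale, and EPHB6 by 0.94, a call lost without MDA-MB-231 control replicate 2 (-0.76, adjusted p = 0.0519 by edgeR). EPHB2 (-0.02 ± 0.04) did not pass, and EPHB1 had 0 counts in all 4 libraries, as did SEMA5B.

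Of the semaphorins, SEMA7A had 48.1 and 48.1 CPM in MDA-MB-231 siGpx1 libraries, against 94.1 and 95.6 CPM in controls. It fell 1.97-fold (log2 change -0.98 ± 0.05; adjusted p = 9.46e-10 by edgeR), with replicates that were almost the same. SEMA4C had 16.7 and 16.9 CPM in siGpx1 libraries, against 31.4 and 34.1 CPM in controls. This was a clear separation, 1.95-fold lower (log2 change -0.96 ± 0.08; adjusted p = 1.23e-07 by edgeR). SEMA6B fell by 0.59, the secreted SEMA3B by 0.55 and SEMA3C by 0.29 on the log2 scale. SEMA4D, the ligand of PLXNB1, rose by 0.23 ± 0.07, by 0.37 without MDA-MB-231 control replicate 1, and did not pass without MDA-MB-231 control replicate 2, by DESeq2 or by limma on log2(TPM + 1) or log2(TPM + 0.1), at adjusted p of 0.0773 to 0.415 under those 3 settings. SEMA3A (0.25 ± 0.10) and SEMA3F (-0.37 ± 0.15) stayed short of the threshold, with adjusted p of 0.0536 and 0.0543 by edgeR.

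Of the semaphorin receptors, PLXNA4 had 1.89 and 2.0 CPM in MDA-MB-231 siGpx1 libraries, against 3.89 and 5.05 CPM in controls, or 28, 28, 59 and 78 counts. All siGpx1 values lay below the controls, and PLXNA4, with the 8-base sequence in its 3′ UTR, fell 2.30-fold (log2 change -1.20 ± 0.21; adjusted p = 0.000222 by edgeR). PLXNA1 fell by 0.41 on the log2 scale. NRP2 had 64.4 and 63.9 CPM in siGpx1 libraries, against 45.7 and 46.8 CPM in controls, and rose 1.39-fold (log2 change 0.47 ± 0.08; adjusted p = 0.000141 by edgeR). It holds GGCATCA in its 3′ UTR. PLXNB2 had 243 and 252 CPM in siGpx1 libraries, against 202 and 209 CPM in controls. It rose by 0.27 ± 0.05 on the log2 scale (adjusted p = 0.000336 by edgeR), a small shift that both libraries showed. NRP1 had a log2 change of 0.08 ± 0.04 and did not pass, nor did the other 6 plexins. The 28 members that did not pass include EPHA3, with 1 count in the siGpx1 libraries and 0 in controls, and SEMA6D, with 5 and 12 counts in siGpx1 and control libraries.

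**Figure D4:**
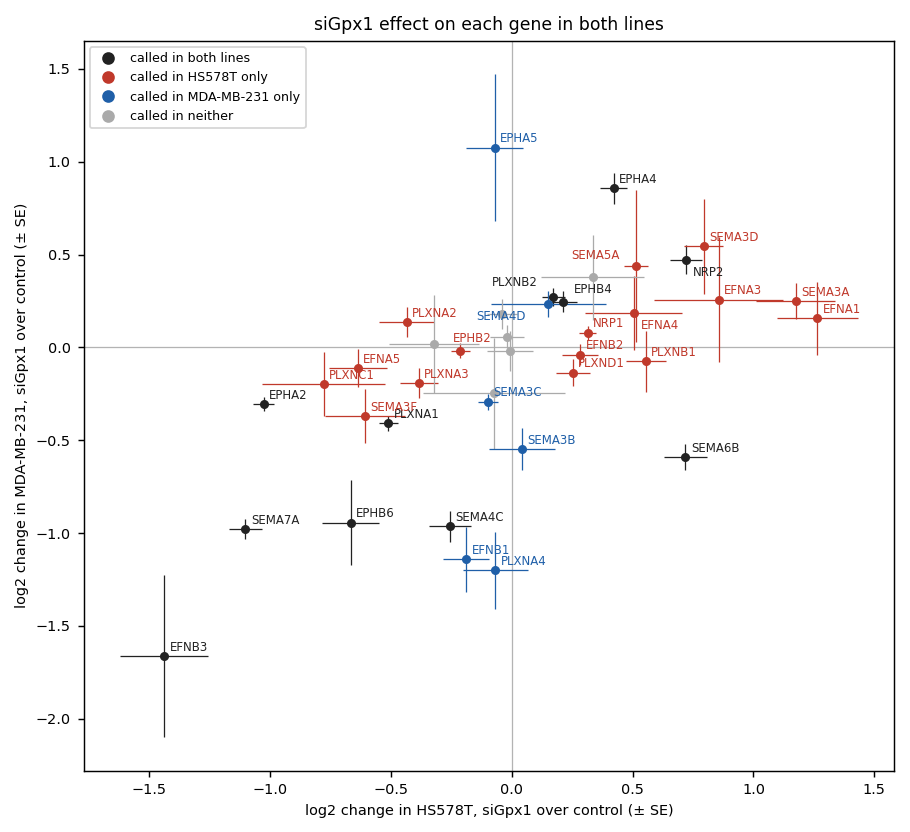
Log2 change with siGpx1 in HS578T (horizontal) and in MDA-MB-231 (vertical), with SE bars, for the 39 tested genes with at least 1 CPM in a group of each line. EFNB3, SEMA7A, EPHA2, EPHB6, PLXNA1 and SEMA4C lie in the lower left, and SEMA6B alone among the genes called in both lines lies at lower right.

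Set side by side, 11 members changed in both lines, 24.4% of the 45, against 30.7% of all tested genes. EPHA4, NRP2, PLXNB2 and EPHB4 rose in both, EFNB3, SEMA7A, EPHA2, EPHB6, PLXNA1 and SEMA4C fell in both, and SEMA6B had opposite directions. Higher in both were 8.89% of the members, against 14.9% of all tested genes, and lower in both 13.3%, against 14.3%. Another 20 members (44.4%, against 20% of all tested genes) passed in HS578T alone, 6 (13.3%, against 11.8%) in MDA-MB-231 alone and 8 (17.8%, against 37.5%) in neither line. A call in one line alone does not show a difference, so the siGpx1 effect in MDA-MB-231 minus that in HS578T was tested directly. It passed for 17 of 45 members, 37.8%, against 17% of all tested genes: 5 were higher, against 6.32%, and 12 lower, against 10.7% (edgeR's quasi-likelihood test, adjusted p under 0.05). These 17 include 9 of the 20 that passed in HS578T alone, 4 of the 6 in MDA-MB-231 alone and 4 of the 11 in both. The split was sensitive to the method, with 4 higher and 6 lower by DESeq2 and by limma on log2(TPM + 1), and 5 and 6 by limma on log2(TPM + 0.1).

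SEMA6B, a transmembrane semaphorin that binds class A plexins, had the largest difference. It had 24.1 and 22.8 CPM in MDA-MB-231 siGpx1 libraries, against 35.2 and 35.4 CPM in MDA-MB-231 controls, and 23.0 and 26.0 CPM in HS578T siGpx1 libraries, against 14.9 and 14.9 CPM in HS578T controls. The siGpx1 libraries of both lines thus lay in one narrow range, and the controls on either side of it. The effects were -0.59 ± 0.07 in MDA-MB-231 and 0.72 ± 0.09 in HS578T, a difference of -1.31 ± 0.11 (adjusted p = 1.86e-06 by edgeR). For PLXNA4 the effects were -1.20 in MDA-MB-231 and -0.07 in HS578T (difference -1.13 ± 0.25, adjusted p = 0.00533 by edgeR), and for EFNB1 -1.14 and -0.19 (difference -0.95 ± 0.20). SEMA4C had -0.96 and -0.25 (difference -0.71 ± 0.12). EFNA1 had 0.16 in MDA-MB-231 and 1.26 in HS578T (difference -1.11 ± 0.26), and SEMA3A 0.25 and 1.18 (difference -0.93 ± 0.19). In the other direction, EPHA2 had -0.30 in MDA-MB-231 and -1.03 in HS578T (difference 0.72 ± 0.06, adjusted p = 7.1e-07 by edgeR). PLXNA2 had 0.14 and -0.43 (difference 0.57 ± 0.14), EFNA5 -0.11 and -0.64 (0.52 ± 0.16), EPHA4 0.86 and 0.42 (0.43 ± 0.10) and EPHB2 -0.02 and -0.21 (0.19 ± 0.06). SEMA7A, EFNB3, NRP2 and PLXNA1 did not pass this test, with differences of 0.12 ± 0.09, -0.23 ± 0.47, -0.25 ± 0.10 and 0.10 ± 0.06. Leaving out 1 library gave 2 to 7 higher and 5 to 13 lower, with 2 higher without HS578T control replicate 1 and 5 lower without any one of the 4 MDA-MB-231 libraries. The calls of SEMA6B, SEMA3A, SEMA4C, EPHA2 and EPHA4 were kept without each of the 8 libraries and under the other settings tried.

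Read by 3′ UTR, the 11 members with a match did not move as one. In HS578T 5 of the 11 fell (EFNB3, SEMA7A, EFNA5, PLXNA2 and SEMA5B) and NRP2 and SEMA5A rose, with a median log2 change of -0.187. Of the 34 members with no match, 10 fell and 14 rose, with a median of 0.0216. In MDA-MB-231 4 of the 11 fell (EFNB3, PLXNA4, EFNB1 and SEMA7A) and NRP2 rose, with a median of 0, in which SEMA5B with its 0 counts is included. Of those with no match, 7 fell and 5 rose, with a median of -0.0196. Outside the families, 1868 genes had a match, of which 43.4% fell and 17.7% rose in HS578T. In MDA-MB-231 the shares were 44.1% lower and 13.8% higher. For the 11184 genes with none, the shares in HS578T were 19.5% lower and 32% higher, and in MDA-MB-231 19.2% lower and 23.3% higher. Medians for the 334 holders of all 8 bases were -0.378 in HS578T and -0.374 in MDA-MB-231. Of the 3 members with it, EFNB3 fell in both lines, EFNA5 in HS578T and PLXNA4 in MDA-MB-231. EPHA2, EPHB1, EPHB6, SEMA4C and PLXNA1 fell with no match in their 3′ UTRs. Whether a match bears on the change of a member was not tested.

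**Figure D5:**
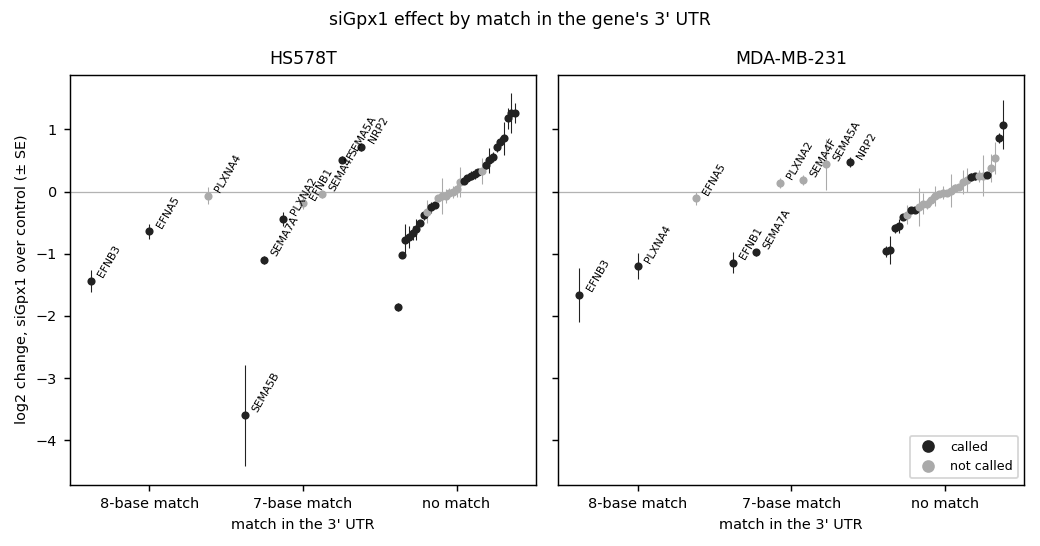
Log2 change with siGpx1 (SE bars) of the tested genes with at least 1 CPM in a group of the line, by the match in their 3′ UTR, with called genes in black and the holders named. EFNB3 and SEMA7A lie below 0 in both panels, NRP2 above 0 in both, and genes with no match spread to both sides.

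The control cells of the lines differed in most of these genes before any depletion. MDA-MB-231 controls had more SEMA4D, SEMA3A, EFNB2, SEMA6B and SEMA7A, and HS578T controls had EPHB1, SEMA5A, EPHA5 and SEMA3D that were near or at 0 in MDA-MB-231. Of 45 members, 14 were higher in MDA-MB-231 control cells, against 43% of all tested genes, and 25 were lower, against 38.6%, so that 86.7% differed, against 81.6% (edgeR's quasi-likelihood test, adjusted p under 0.05). In 42 members the groups did not overlap, against 91% of all tested genes. Since each line is 1 line, these differences describe this pair only.

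SEMA4D had 52.4 and 46.3 CPM in MDA-MB-231 control libraries, against 3.01 and 2.90 CPM in HS578T control libraries, 16.6-fold higher (log2 difference 4.06 ± 0.13). SEMA3A was 4.48-fold higher (2.16 ± 0.14) and EFNB2 3.14-fold (1.65 ± 0.06). SEMA6B, SEMA7A and PLXNC1, the last a receptor of SEMA7A, were 2.37-, 2.13- and 2.09-fold higher in MDA-MB-231, and PLXNA2 and EPHA2 1.89- and 1.85-fold. The receptor EPHB1 had 0 and 0 counts in MDA-MB-231 control libraries, against 3500 in both HS578T control libraries together, which makes it at least 1371-fold lower if 3 counts over the MDA-MB-231 group are taken as the floor. SEMA5A had 11 and 14 counts in MDA-MB-231 control libraries, against 3265 and 3131 in HS578T, 297-fold lower. EPHA5 was 35.6-fold lower in MDA-MB-231, SEMA6D 21.4-fold, SEMA3D 19.3-fold and EFNB3 11.1-fold. EPHB6 was 6.44-fold lower and PLXNB1, the receptor of the abundant SEMA4D, 5.96-fold lower in MDA-MB-231. With the same floor of 3 counts, EPHA3 was at least 12.5-fold and SEMA5B at least 11.4-fold lower, and EPHA10 at least 6.81-fold higher, in MDA-MB-231. EFNA1, EFNA4, EFNA5, EPHB3, SEMA3F and SEMA6A did not pass. The comparisons with depleted cells use the same control libraries, so these level differences and the siGpx1 effects are not independent of each other.

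Other genes of the pathways were taken as lists of signalling partners. Of 44 tested partners of semaphorins and plexins, 19 rose and 9 fell in HS578T siGpx1 cells, and 15 rose and 12 fell in MDA-MB-231 siGpx1 cells. In all, 63.6% changed in HS578T, against 50.7% of all tested genes, and 61.4% in MDA-MB-231, against 42.6%. Their median log2 changes were 0.0866 and 0.0953, against 0.0409 and 0 for all tested genes. LIMK1, a kinase that inactivates the actin-severing protein cofilin, fell by 1.15 on the log2 scale in HS578T and by 0.83 in MDA-MB-231. RAP1B, a small GTPase on which plexins act, rose by 1.03 ± 0.05 in HS578T and 0.82 ± 0.05 in MDA-MB-231. VEGFA, a growth factor that also binds neuropilins, rose by 0.91 ± 0.04 in HS578T and fell by 0.32 on the log2 scale in MDA-MB-231, and PGF, of the same growth factor family, fell by 1.44 in HS578T and by 0.67 in MDA-MB-231. MET, a receptor kinase that can pair with class B plexins, rose by 0.48 ± 0.04 in HS578T and 0.55 ± 0.04 in MDA-MB-231, and RND3, a small GTPase, by 0.28 ± 0.04 and 0.51 ± 0.04.

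Of 39 tested partners of Eph receptors and ephrins, 15 rose and 8 fell in HS578T siGpx1 cells, and 10 rose and 6 fell in MDA-MB-231 siGpx1 cells, with median log2 changes of 0.168 and 0.0425. That is 59% in HS578T, against 50.7% of all tested genes, and 41% in MDA-MB-231, against 42.6%, a share near that of all genes. CDC42, a small GTPase that acts on the actin cytoskeleton, had the smallest p of the list in both lines and fell by 1.35 on the log2 scale in HS578T and by 1.27 in MDA-MB-231. ADAM10, the protease that cleaves ephrins from the cell surface, rose in HS578T by 1.11 ± 0.04 and in MDA-MB-231 by 0.53 ± 0.04. The adaptor CRKL fell by 0.73 in HS578T and by 0.96 in MDA-MB-231, and CRK fell by 0.56 in HS578T and by 0.57 in MDA-MB-231. The exchange factor VAV3 rose by 1.48 ± 0.07 in HS578T and passed as higher in MDA-MB-231, with 5 counts in siGpx1 and 0 in control libraries. Of 14 tested slit, robo and netrin genes, another guidance system, 3 rose and 5 fell in HS578T siGpx1 cells and 3 rose and 3 fell in MDA-MB-231 siGpx1 cells, with medians of -0.221 and 0.0272. These are 57.1% and 42.9% of the list, against 50.7% and 42.6% of all tested genes, and so near the share of all genes. NTN4, a secreted netrin, rose by 0.75 ± 0.04 in HS578T and 0.90 ± 0.07 in MDA-MB-231, and the receptor ROBO1 by 0.26 ± 0.04 and 0.41 ± 0.10. SLIT2 rose by 0.47 ± 0.09 in HS578T and 0.29 ± 0.09 in MDA-MB-231. SLIT3 fell by 0.76 in HS578T and had 2 counts in siGpx1 and 0 in control libraries of MDA-MB-231. RGMB and ROBO4 fell by 0.67 and 0.59 in MDA-MB-231, and in HS578T had changes of -0.06 ± 0.06 and -0.52 ± 0.27 that did not pass.

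Markers of the labelled cell type and of others moved with depletion as well. The 8 breast epithelial markers summed to between 1184 and 1238 TPM in HS578T siGpx1 libraries, against 489 to 505 TPM in HS578T controls, and to between 2748 and 2818 TPM in MDA-MB-231 siGpx1 libraries, against 1742 to 1762 TPM in MDA-MB-231 controls. Of the 7 tested, 4 rose in HS578T (57.1%, against 28.6% of all tested genes) and 5 in MDA-MB-231 (71.4%, against 20.7%), KRT18 and KRT8 among them in both lines. The 6 mesenchymal markers summed to between 20286 and 22357 TPM in HS578T siGpx1 libraries, against 16947 to 17222 TPM in controls, and to between 3077 and 3110 TPM in MDA-MB-231 siGpx1 libraries, against 2402 to 2451 TPM in controls. VIM, FN1 and CDH2 rose in both lines, while ZEB1 fell by 0.25 on the log2 scale in HS578T and by 0.19 in MDA-MB-231. ZEB2 fell by 0.25 in MDA-MB-231. Of the 6, 66.7% changed in HS578T, against 50.7% of all tested genes, and 83.3% in MDA-MB-231, against 42.6%. Of the 3 tested endothelial markers, 2 rose in HS578T (66.7% called, against 50.7% of all tested genes). In MDA-MB-231 1 rose and 2 fell (100%, against 42.6%), and 3 genes are few for such shares. The list summed to between 5.90 and 6.25 TPM in HS578T siGpx1 libraries, against 3.61 to 4.24 TPM in controls. In MDA-MB-231 it summed to between 55.1 and 55.4 TPM in siGpx1 libraries, against 63.8 to 64.5 TPM in controls, nearly all of it ESAM. CDH5 and VWF averaged at most 0.02 and 0.04 TPM in any group. The leukocyte markers CD3E and FCGR3A had 0 counts in all 8 libraries. CD68 fell in HS578T and CD14 rose in MDA-MB-231, 50% of the 2 tested in either line. Of 5 tested neural markers, TUBB3 rose by 0.55 ± 0.05 in HS578T, and MBP passed there with 5 counts in siGpx1 and 0 in control libraries. In MDA-MB-231 GFAP fell by 1.27 on the log2 scale, the other 4 did not pass, and TUBB3 had a change of 0.12 ± 0.07. The called share of the neural list was 40% in HS578T and 20% in MDA-MB-231, against 50.7% and 42.6% of all tested genes. The part of these markers in the results above was not tested.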

How the data were processed

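Total RNA of 8 libraries (HS578T and MDA-MB-231, each siGpx1 and control, 2 libraries a group) was sequenced. The expected counts and TPM values per gene, as deposited by the authors, come from RSEM 1.2.12 on hg19, and FastQC was used, per the submitters' processing notes. The sources used here do not give the aligner or the use of strand. RSEM shares out reads that fit several genes, so near-identical copies are uncertain. Groups were read from the titles. The genotype tag reads Gpx1-/- where titles say siGpx1, and the source label counts upward within a line while the cell line tag is constant.

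Expected counts were rounded, filtered with edgeR's filterByExpr (14249 genes kept) and scaled by TMM. A mean per group was fitted on all 8 libraries (4 residual degrees of freedom) and compared by the quasi-likelihood test of edgeR. P-values were adjusted over all tested genes by the Benjamini-Hochberg method, with calls at an adjusted p under 0.05. The SE is the size of the log2 change divided by the root of F. The biological coefficient of variation was 0.0342. Depth was 12905808 to 14216365 counts a library, and floors of 3 counts cover counting error only.

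The members, lists and named genes were chosen with earlier results of these data known. The text names, for each depletion comparison, called members with a mean of at least 1 CPM (up to 12 rises and 12 falls, the first 4 of each by library), then up to 6 per direction for the difference between lines and 8 for the controls (at least 5 CPM in the higher line), the 6 highest by TPM in each line, up to 4 called genes of each other list, and holders of the 3′ UTR sequences. Genes named beyond this complete the count of members. The 3′ UTRs came from GENCODE release 29 (GRCh38), which gave 91.9% of tested genes one of at least 30 bases. Each 7-base sequence found in at least 100 genes was scored by its t in a linear model of the log2 change. That model also held the log2 length of the gene's longest 3′ UTR. Other settings were DESeq2, its size factors in edgeR, limma-voom, no filter, a filter of 5 CPM in 2 libraries, limma on log2(TPM + 1) and log2(TPM + 0.1), a replicate block, only the 4 libraries of a comparison, and each library left out. The fit was tested on simulated data. Software was R 4.3.3, edgeR 4.0.16, limma 3.58.1, DESeq2 1.42.0, and Python 3.11.15 (matplotlib 3.10.9, scipy 1.17.1, pandas 2.3.3, numpy 2.4.6).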

Additional observations from a re-analysis of the deposited data

Results flagged for a closer look

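The effect of siGpx1 differed between the lines for 17 genes by a direct test of the difference (effect in MDA-MB-231 minus effect in HS578T, edgeR's quasi-likelihood test, adjusted p under 0.05 over all genes). Of the 17, 12 had a lower signed effect in MDA-MB-231, which is a larger fall for some and a smaller rise for others. PLXNA4 had -0.07 in HS578T and -1.20 in MDA-MB-231, and EFNA1 1.26 and 0.16. The differences on the log2 scale were -1.31 for SEMA6B, -1.13 for PLXNA4, -1.11 for EFNA1, -0.95 for EFNB1, -0.93 for SEMA3A and -0.71 for SEMA4C. Smaller ones were -0.63 for PLXNB1, -0.59 for SEMA3B, -0.39 for PLXND1, -0.32 for EFNB2, -0.24 for NRP1 and -0.19 for SEMA3C. The other 5 had a higher signed effect in MDA-MB-231, by 0.72 for EPHA2, 0.57 for PLXNA2, 0.52 for EFNA5, 0.43 for EPHA4 and 0.19 for EPHB2. For EPHA2 this was a weaker fall, from -1.03 in HS578T to -0.30 in MDA-MB-231. EFNA5 (-0.64 and -0.11) and EPHB2 (-0.21 and -0.02) likewise had the larger change in HS578T.

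Several of these did not keep their call when 1 library was left out, a fit that also has fewer residual degrees of freedom. EFNA1 did not pass without MDA-MB-231 control replicate 1 (-0.90), EFNB1 without MDA-MB-231 control replicate 1 (-0.65) or siGpx1 replicate 2 (-0.79), and PLXNA4 without MDA-MB-231 control replicate 2 (-0.83) or siGpx1 replicate 1 (-1.0). PLXNA2 did not pass without HS578T control replicate 1 (0.40), EPHB2 without either HS578T control library, and EFNA5 without HS578T control replicate 1, HS578T siGpx1 replicate 1 (0.37) or MDA-MB-231 siGpx1 replicate 2. PLXNB1, SEMA3B, PLXND1, EFNB2, NRP1 and SEMA3C each lost their call without 4 to 7 of the 8 libraries. Of 8 other settings, EFNA1 lost its call by DESeq2, PLXNA4 by limma on log2(TPM + 1), PLXNA2 by limma on log2(TPM + 1) and log2(TPM + 0.1), and EFNA5 by all of these. NRP1 lost it under 2 settings, and PLXND1, EFNB2, PLXNB1, SEMA3B and SEMA3C under 4 to 6.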

How the results depend on the processing

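Both counting depth and the spread between 2 libraries a group limit these results: chi-square averaged over genes was 1.36 to 1.97 in 3 groups and 4.05 in HS578T siGpx1, where counting error alone gives about 1. The single values followed under the alternatives are those of members already called in the main fit, where an adjusted p was given. Of these 1738 values, 1571 kept their direction and side of the threshold, 167 kept their direction but no longer passed, and 0 reversed. Gained calls cannot appear in this count. Members picked for a call and refitted on largely the same libraries can hardly reverse, so it does not measure stability in general. The numbers of called members stayed within 1.5 times of those reported for both depletion comparisons and the controls under the settings that keep all libraries. For the difference between lines, 12 lower members became 6 by DESeq2, 6 with the filter of 5 CPM in 2 libraries (38 members tested), 6 by limma on log2(TPM + 1) and 6 on log2(TPM + 0.1), and 5 higher members became 8 with that filter; the cause was not tested. Leaving out 1 library gave 10 to 16 higher and 12 to 18 lower members in HS578T, 5 to 8 and 9 to 13 in MDA-MB-231, 2 to 7 and 5 to 13 for the difference between lines, and 12 to 14 and 23 to 25 between the controls. In the controls, EPHB4 and PLXNA1 lost their call under 9 settings each and SEMA6C under 6. Same-numbered libraries did not deviate together (correlations of -0.0639 to 0.0669). This cannot decide whether the numbers mark pairs, since deviations made up largely of counting error would not correlate even in true pairs. With a replicate block, 16 members were higher and 16 lower in HS578T, 5 and 11 in MDA-MB-231, 5 and 12 for the difference and 13 and 23 between the controls. Limma on log2(TPM + 1) shifted the median of all genes between the controls by 0.133 on the log2 scale.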
